A study of Homo sapiens with 3 samples.

Results

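The cytosolic ribosomal protein genes were taken from the expression table of HCT-116 cells by symbol. RPL and RPS genes named for a subunit protein were kept, with *RPLP0*, *RPLP1*, *RPLP2*, *RPSA* and *FAU*. Kept too were 6 paralogs whose symbols end in L or L1. Pseudogenes, S6 kinases, read-through transcripts and the paralogs *RPS27L* and *RPL36AL* were left out. The rule gave 84 of the 23131 rows, 52 for the large and 32 for the small subunit. HCT-116 is a line of human colon carcinoma cells that carries wild-type APC and a *CTNNB1* allele lacking serine 45 of β-catenin, and every library in the experiment shares this background. There was 1 library each for cells given a pool of siRNAs against *APC*, cells given a pool of scrambled siRNAs and cells given neither, which the labels call both untransfected and mock. Transfections were on consecutive days and cells were harvested 48 hours after the second. The comparison asked which transcripts differ when *APC* is depleted. The anti-*APC* and untransfected libraries were compared here, and the library of scrambled siRNA was not analysed here. With 1 library per group there is no replicate check, so every difference below compares 2 libraries and carries no test. Effects of *APC* loss, of siRNA delivery and of the library cannot be told apart.

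Values are FPKM, read fragments counted per kilobase of transcript relative to all mapped reads, and the read depth behind them is unknown. As a check of the labels, *APC* stood at 9.15 FPKM in untransfected and 3.43 FPKM in siAPC cells. *AXIN2*, a WNT target that limits β-catenin, stood at 4.11 and 28.7 FPKM. Of 7 colon epithelial markers 5 passed 1 FPKM in both libraries, and all 5 were lower in siAPC cells, from 0.636-fold for *CDH1* through *KRT18*, *KRT19* and *KRT8* to 0.898-fold for *EPCAM*. Of all genes at or above 1 FPKM in each library, 58.4% were lower in siAPC cells and 22.2% were at least 1.2-fold lower. The 7 markers summed to 1643 FPKM in untransfected and 1288 FPKM in siAPC cells, and the part of this difference in the results below was not tested. The differentiation markers *KRT20*, at 0.475 and 0.718 FPKM, and *VIL1*, at 0 and 0.0313 FPKM, were near absent. The 4 blood markers and 3 endothelial markers were below 1 FPKM in both libraries, as were all but *COL1A1* (2.85 and 3.08 FPKM) of the 4 fibroblast markers. Ratios are given as log2 of siAPC over untransfected FPKM for the 11815 genes at or above 1 FPKM in each library, and calls are folds of at least 1.2 or 1.5.

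A ribosome is built from ribosomal RNA and a set of small, mostly basic proteins in near equal numbers, so growing cells keep the genes for these proteins at high and similar mRNA levels. The large subunit forms peptide bonds and the small subunit decodes the mRNA. Most of these mRNAs begin with a 5′ terminal oligopyrimidine (TOP) tract, a C followed by a run of pyrimidines, through which growth signals acting on mTOR control their translation. A known link from WNT signalling to ribosome production is MYC, a WNT target that activates ribosome biogenesis genes.

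Ribosomal protein mRNAs were close to equal in the 2 libraries. The 81 members above the minimum had a median log2 ratio of 0.05 (a fold of 1.03), with quartiles of −0.03 and 0.10. Of these, 65 lay within 1.1-fold (80.2%), against 42.9% of all 11815 genes and 55.7% of the 849 other genes with at least 100 FPKM. These sets differ in level, with untransfected medians of 711 FPKM for the members, 14.3 for all genes and 184 for the 849. The part of level in the narrow range was not tested. A ratio above 1 was found for 52 members and below 1 for 29, a share of 64.2% above 1 against 41.6% of all genes and 55.6% of the 923 genes at or above 100 FPKM in each library. This direction depends on scaling. With the libraries brought to one FPKM sum, 35 members were above 1 and 46 below (43.2% above, against 31.7% of all genes). With the median of all genes set to equality, 65 were above and 16 below (80.2% above, against 50.0% of all genes). A single row, *MIR4461*, held 49.2% of the FPKM sum in untransfected and 50.3% in siAPC cells. Without the 20 highest rows that are not members, the sums were 556965 and 564495 FPKM. The members' median exceeded that of all genes by 0.10 on the log2 scale, a difference that a constant scaling cannot change, and by 0.06 among genes with at least 10 FPKM. With at least 100 FPKM the gap was smaller, with medians of 0.046 for 74 members and 0.017 for the 849 other genes.

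Few members passed a fold limit. Only *RPL21* was at least 1.2-fold higher in siAPC cells, where 9.59% of all genes were. At least 1.2-fold lower were 3 of 81 members, *RPS28* and *RPL22L1* among them, against 22.2% of all genes. With the median of all genes set to equality no member was, since *RPS28* then stood at −0.23 and *RPL22L1* at −0.22, and with upper quartiles matched or a trend on transcript GC removed 1 member was. Past 1.5-fold in either direction there was again *RPL21* alone, against 8.04% of all genes (2.29% higher and 5.76% lower). Among genes with at least 100 FPKM, 9.86% were 1.2-fold higher and 12.1% were 1.2-fold lower, and 6.93% passed 1.5-fold (3.36% higher and 3.58% lower). *RPL22L1*, at 0.832-fold, was just inside the lower limit, and the member nearest to the upper limit from below was *RPS6* at 1.15-fold.

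**Figure D1:**
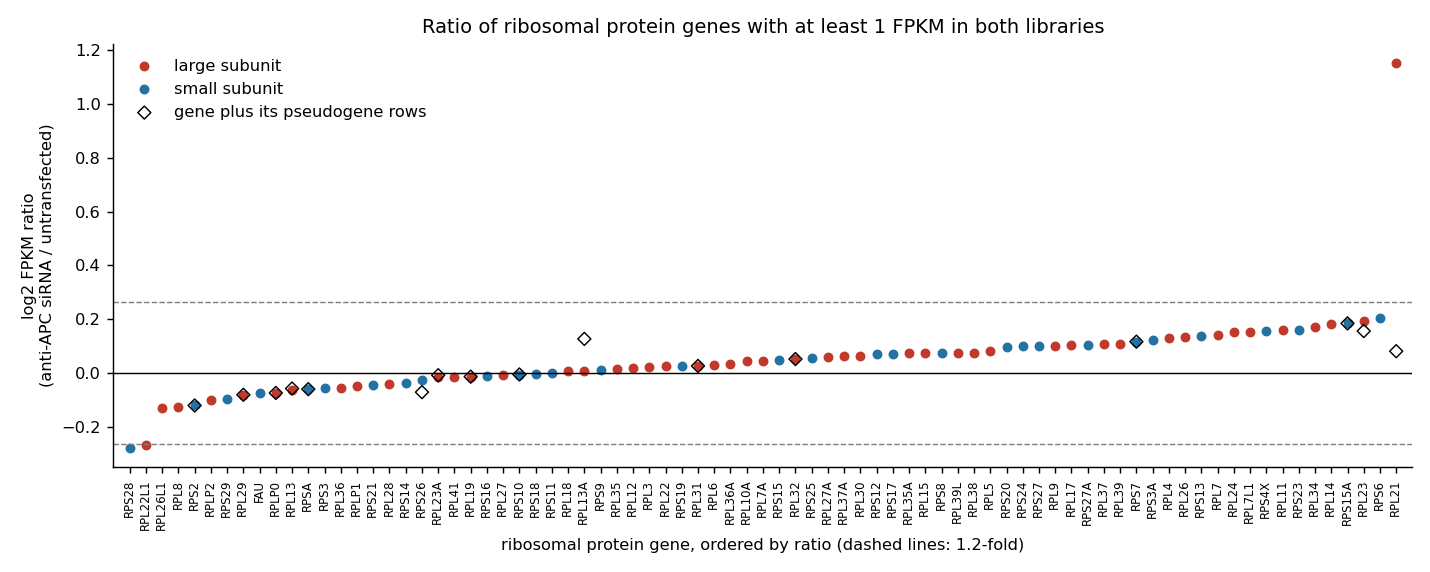
Log2 FPKM ratio (siAPC over untransfected, vertical axis) of 79 of the 81 ribosomal protein genes at or above 1 FPKM in each library, in rank order, 1 point per gene, with diamonds for the gene summed with its pseudogene rows and dashed lines at 1.2-fold. RPL21 stands alone at 1.15, RPS28 and RPL22L1 lie at −0.28 and −0.27, and the other members drawn lie between −0.13 and 0.20.

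The listed levels spanned a wide range within each library. The 6 measured members below 100 FPKM in untransfected cells were the paralogs *RPL39L*, *RPL7L1* and *RPL26L1*, and *RPL21*, *RPL36A* and *RPS26*. The last 3 have a pseudogene or read-through row described below, so their own levels are uncertain. Members above the minimum ran from 13.1 to 1830 FPKM in untransfected cells with a median of 711, and from 17.2 to 1772 FPKM in siAPC cells with a median of 757. There were 21 members at or above 1000 FPKM in the untransfected and 23 in the siAPC library. Of the 100 highest rows of the untransfected library, 24 were members. Together the members held 4.44% of all FPKM in untransfected and 4.37% in siAPC cells. *MIR4461*, a single microRNA row, held 49.2% and 50.3% of all FPKM, and without the 20 highest rows that are not members the shares were 10.7% and 10.9%.

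The highest levels belonged to proteins from several sites of the ribosome. *RPLP1*, an acidic protein of the stalk that binds elongation factors, stood at 1830 and 1772 FPKM in untransfected and siAPC cells. *RPLP0*, the base of the stalk, followed at 1746 and 1660 FPKM. Next came *RPL8*, a large subunit protein close to the peptidyl transferase centre, at 1639 and 1504 FPKM, and *RPL26*, known for binding the p53 mRNA as well as for its place in the large subunit, at 1540 and 1691 FPKM. *RPL30* stood at 1528 and 1597 FPKM, and *RPS18*, of the small subunit head, at 1517 and 1515 FPKM. *RPS18* is listed on an alternative haplotype of chromosome 6 (ssto_hap7) and was not tested by the authors' program. *RPS6*, *RPL11*, *RPS12* and *RPS29* completed the highest 10, with untransfected levels of 1498, 1477, 1358 and 1347 FPKM and siAPC levels of 1725, 1652, 1426 and 1260 FPKM. *RPS6* went from rank 7 to rank 2, while *RPL8* went from rank 3 to rank 8.

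**Figure D2:**
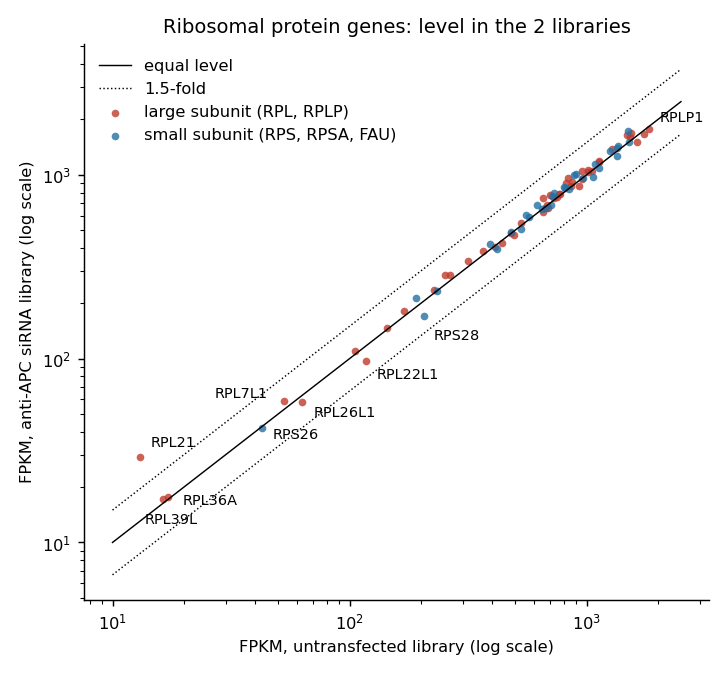
FPKM of 79 ribosomal protein genes in siAPC cells (vertical axis) against untransfected cells (horizontal axis), both on log scales, 1 point per gene and 1 library per axis, with a solid line at equality and dotted lines at 1.5-fold. Points follow the line of equality from 16.3 to 1830 FPKM, and RPL21 (13.1 and 29.0 FPKM) lies off it.

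Only 3 members were under the minimum in this epithelial line. *RPL3L*, the striated muscle counterpart of *RPL3*, was listed at 0.0546 and 0.150 FPKM, while *RPL3* stood at 1018 and 1035 FPKM. *RPL10L*, a retrogene copy active in male germ cells, was listed at 0.0598 and 0.0327 FPKM. *RPL10*, which joins the large subunit late in its maturation, was listed at 0 in both libraries. Its status was FAIL, as for all 269 rows of that status, which are all listed at 0 in both libraries, so no level can be read for *RPL10*. It lies at chrX:153618315-153637504 (GRCh37, plus strand), and its locus in the table is shared with *DNASE1L1*, *SNORA70* and *TAZ*.

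*RPL21*, a large subunit protein at chr13:27825499-27830828 (GRCh37, plus strand, 6 exons), had the highest ratio of the members. Its level was 13.1 FPKM in untransfected and 29.0 FPKM in siAPC cells, a log2 ratio of 1.15. It was the lowest member above the minimum in untransfected cells. The table gives the pseudogene *RPL21P28* the same locus, although GENCODE places it at chr1:212224866-212225348 (minus strand). *RPL21P28* stood at 18.6 and 4.47 FPKM, the opposite direction. *RPL21* and its pseudogene rows summed to 31.8 and 33.6 FPKM, a log2 ratio of 0.08, and the pseudogene share of that sum was 58.8% and 13.6%. *RPL21P28* and the *RPL21* transcript were identical at 99.4% of 483 aligned bases, and 1601 GENCODE pseudogenes carry the name of a member, of which *RPL21* has 133, the most of any. The authors' counting could split reads between such copies, so the *RPL21* ratio is uncertain.

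A stretch of *RPL21* and of the copy that GENCODE names *RPL21P28* is shown because it holds 1 of the 3 bases that differ between them. Both rows share one listed locus, and how reads were split between the rows was not tested. Capitals mark the base that differs, and all other letters are shared. The stretch starts at base 160 of the *RPL21* transcript in GENCODE.
RPL21: agacatcaagggaaTgggtactgttcaaaa
RPL21P28: agacatcaagggaaCgggtactgttcaaaa

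**Figure D3:**
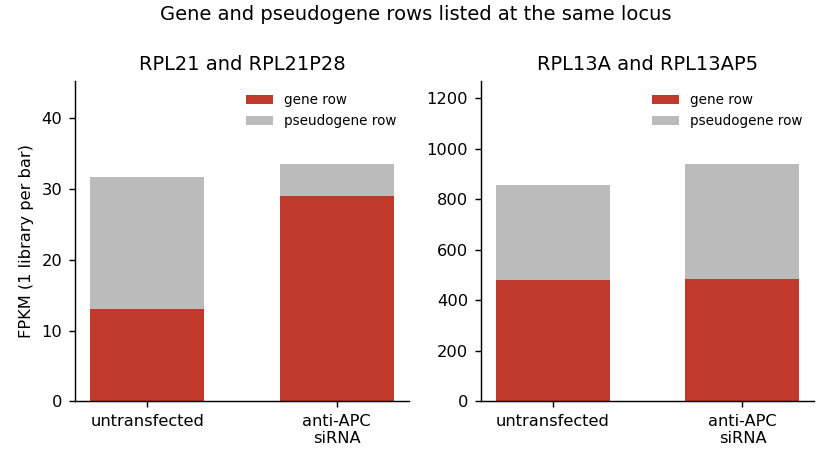
FPKM of RPL21 and RPL13A and of the pseudogene row listed at the same locus, stacked from 0, 1 bar per library. For RPL21 the gene part (13.1 and 29.0 FPKM) and the pseudogene part (18.6 and 4.47 FPKM) differ in opposite directions, and for RPL13A the pseudogene part is larger in siAPC cells (376 and 454 FPKM).

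In all, 17 members had 28 pseudogene rows in the table, and 3 of those rows were listed at the locus of the gene. Beside *RPL21P28* one of these was *RPL13AP5*, placed by GENCODE at chr10:98510045-98510656 and identical to *RPL13A* at 99.5% of 612 aligned bases. *RPL13A*, a large subunit protein that also takes part in silencing inflammatory mRNAs, stood at 482 and 485 FPKM, and *RPL13AP5* at 376 and 454 FPKM. With its 5 pseudogene rows *RPL13A* summed to 1291 and 1410 FPKM, a log2 ratio of 0.13. *RPSA*, a small subunit protein also known as the laminin receptor precursor, stood at 527 and 505 FPKM, and *RPSAP58*, identical to *RPSA* at 99.4% of 1036 aligned bases, at 427 and 407 FPKM. The *RPSA* sum with 3 such rows was 1005 and 964 FPKM, a log2 ratio of −0.06, the same as for the gene alone. *RPS26*, a small subunit protein at the mRNA exit channel, stood at 42.7 and 41.9 FPKM, and *RPS26P11* at 29.0 and 26.4 FPKM. When each member was replaced by its sum, no member was at least 1.2-fold higher, 2 were at least 1.2-fold lower, and the range narrowed to between −0.28 and 0.20. The standard deviation over the 81 genes was 0.10 with sums and 0.16 with gene rows.

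*RPS28* and *RPL22L1* were alone at their loci, with no other row listed there. *RPS28*, a small subunit protein near the mRNA exit (chr19:8386042-8388224, GRCh37, plus strand), stood at 206 FPKM in untransfected and 170 FPKM in siAPC cells, a log2 ratio of −0.28. *RPL22L1*, a paralog of *RPL22* (chr3:170582664-170587997, GRCh37, minus strand), stood at 117 and 97.5 FPKM, a log2 ratio of −0.27. Both kept their sign under each scaling tried, though the constant rescalings, of at most 0.06, could not have turned ratios of this size. With the median of all genes set to equality neither passed 1.2-fold. *RPL22*, the RNA-binding large subunit protein, stood at 144 and 146 FPKM. *RPL22L1* thus made up 44.9% of the pair in untransfected and 40.0% in siAPC cells. In the *RPL26* pair the paralog *RPL26L1* was also lower, at 63.3 and 57.9 FPKM (log2 ratio −0.13), and its share was 3.95% and 3.31%.

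In 3 other pairs the share of the paralog was nearly equal in the 2 libraries. *RPL39L*, a testis-enriched copy of *RPL39*, stood at 16.3 and 17.2 FPKM and made up 1.26% and 1.23% of its pair. *RPL7L1*, a homolog of *RPL7* that acts in ribosome assembly, stood at 52.7 and 58.6 FPKM and made up 6.05% and 6.09%. Outside the rule, *RPL36AL*, the autosomal copy of *RPL36A*, stood at 446 and 444 FPKM, 96.3% and 96.2% of its pair. *RPS27L*, a p53-responsive paralog of *RPS27*, stood at 42.8 and 54.4 FPKM, a log2 ratio of 0.35, which passed 1.2-fold. *RPS27* stood at 390 and 418 FPKM, so the paralog's share of this pair was higher in siAPC cells, at 9.88% and 11.5%.

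By role, the 3 stalk proteins all had ratios below 1, where 35.8% of the members and 58.4% of all genes lay. *RPLP2* stood at 930 FPKM in untransfected and 868 FPKM in siAPC cells, a log2 ratio of −0.10, beside −0.07 for *RPLP0* and −0.05 for *RPLP1*. All 3 were within 1.1-fold, and each turned to above 1 under at least 1 other scaling. Both proteins of the 5S particle, which binds MDM2 when ribosome assembly fails, had ratios above 1. So did 64.2% of the members and 41.6% of all genes. *RPL5* stood at 866 and 918 FPKM (0.08), and *RPL11* gave 0.16 from the levels above.

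*RPS6*, the substrate of the S6 kinases downstream of mTOR (chr9:19375713-19380234, GRCh37, minus strand), had a log2 ratio of 0.20, the highest after *RPL21*. *RPL23*, another MDM2-binding protein, stood at 836 and 956 FPKM (0.19). *RPS15A*, of the small subunit, stood at 882 and 1003 FPKM (0.19), and *RPL14*, of the large subunit, at 657 and 745 FPKM (0.18). These 4 genes were above 1 under each of 5 scalings (as deposited, median of all genes at equality, one sum, upper quartiles matched, and a trend on transcript GC removed), and none of them reached 1.2-fold. At the lower end, *RPL8* had a log2 ratio of −0.12. *RPS2*, at the mRNA entry channel, stood at 1061 and 977 FPKM (−0.12). *RPL8* and *RPS2* did not keep their sign under every scaling. In all, 35 members were above 1 and 7 below 1 under each of the 5, a count that was not made over all genes. The rescalings by median, one sum and upper quartiles shift every ratio by a constant of at most 0.06. Any gene with a log2 ratio larger in size than this keeps its sign under them, as *RPS6*, *RPL23*, *RPS15A* and *RPL14* had to.

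Ribosomal proteins made as ubiquitin or ubiquitin-like fusions differed little between libraries. *RPS27A*, fused to ubiquitin, stood at 711 and 765 FPKM (0.11), and *FAU*, which encodes RPS30 behind a ubiquitin-like protein, at 417 and 396 FPKM (−0.07). *GNB2L1*, the scaffold RACK1 on the small subunit and outside the rule, stood at 1254 and 1267 FPKM (0.02). *RPS3*, at the mRNA entry channel and also a DNA repair protein, stood at 1133 and 1090 FPKM (−0.06).

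The 3 X-linked members above the minimum were all above 1 in siAPC cells, as were 64.2% of the members and 41.6% of all genes. *RPS4X*, a small subunit protein, stood at 903 and 1007 FPKM (0.16), and *RPL39*, at the peptide exit tunnel, at 1283 and 1384 FPKM (0.11). *RPL36A* stood at only 17.2 and 17.6 FPKM (0.03), and its read-through with *HNRNPH2* was listed higher, at 61.7 and 56.9 FPKM. The sum of both was 78.9 and 74.4 FPKM, a log2 ratio of −0.08, so the sign turned when the rows were summed. *RPS10* with its read-through to *NUDT3* summed to 249 and 244 FPKM (−0.03), and *RPL17* with that to *C18ORF32* to 345 and 368 FPKM (0.09). Of 9 genes known for mutations in Diamond-Blackfan anaemia, a red cell aplasia of ribosome deficiency, 7 were above 1, against 41.6% of all genes. Their median log2 ratio was 0.07, and none passed 1.2-fold.

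The subunits and the wider translation machinery were set beside the members. The 49 large subunit members had a median log2 ratio of 0.05 with 34 above 1 (69.4%, against 41.6% of all genes). The 32 small subunit members had one of 0.04 with 18 above 1 (56.25%). Both medians were −0.02 when the libraries were brought to one FPKM sum. The 41 translation factors, which load, move and release the ribosome, had a median of 0.05 with 29 above 1 (70.7%, against 41.6% of all genes). There were 6 factors at least 1.2-fold higher (14.6%, against 9.59% of all genes) and 2 at least 1.2-fold lower (4.88%, against 22.2%). None passed 1.5-fold, against 8.04% of all genes. *PABPC1*, the poly(A)-binding protein and itself a TOP mRNA, stood at 859 and 1083 FPKM (0.33). *EIF4E*, the cap-binding protein, stood at 48.4 and 61.4 FPKM (0.34), and *EEF1A2*, the elongation factor of muscle and neurons, at 168 and 125 FPKM (−0.43). The 15 TOP mRNAs of other proteins had a median of 0.06 with 13 above 1 (86.7%). This compares with 41.6% of all genes and 55.6% of genes with at least 100 FPKM. *EEF1A1*, the elongation factor that brings aminoacyl-tRNA, was the most abundant at 2348 and 2738 FPKM (0.22).

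Ribosomal proteins of mitochondria, which build a separate ribosome for the mitochondrial genome, lay lower than the members. Their 76 genes had a median log2 ratio of −0.06 with 31 above 1 (40.8%, against 41.6% of all genes). The list had 1 gene at least 1.2-fold higher (1.32%, against 9.59% of all genes). It had 8 at least 1.2-fold lower (10.5%, against 22.2% of all genes). *MRPL24* alone passed 1.5-fold, at 76.5 FPKM in untransfected and 37.1 FPKM in siAPC cells (−1.04). All genes together had a median of −0.05, and the other genes with at least 100 FPKM one of 0.02.

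**Figure D4:**
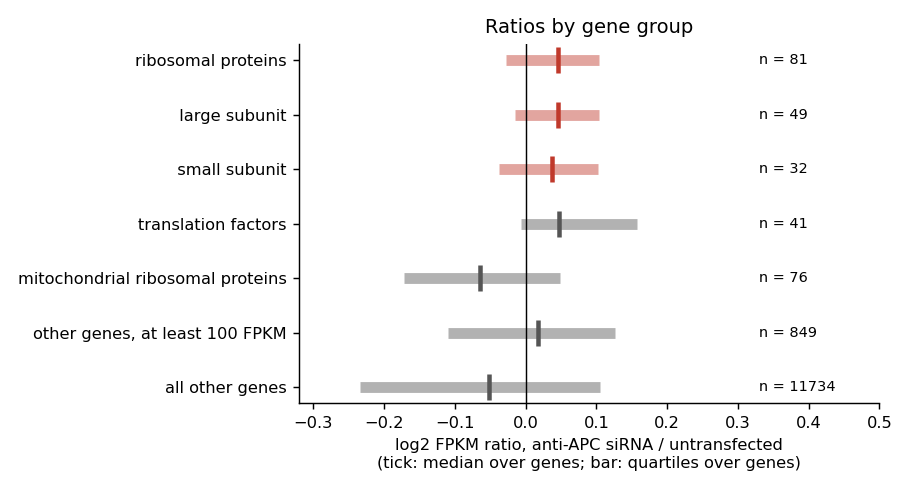
Median (tick) and quartiles over genes (bar) of the log2 FPKM ratio, siAPC over untransfected, for each gene group, with the number of genes at right. Ribosomal proteins (median 0.05) and translation factors (0.05) lie right of 0, and mitochondrial ribosomal proteins (−0.06) and all other genes (−0.05) left of it. The bar of the ribosomal proteins is narrower than that of all other genes, whose median untransfected level is lower (14.2 against 711 FPKM).

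Within the members, the ratio moved with base composition. Across the 81 genes, Spearman's rho between the log2 ratio and the GC content of the canonical transcript was −0.58 and Pearson's r was −0.42, or −0.53 without *RPL21*. Among the 74 members with at least 100 FPKM r was −0.67. The same relation ran through the other genes, with r of −0.32 over 11013 genes, and −0.33 over the 700 with at least 100 FPKM and a GC value (82.4% of them). The points share the same 2 libraries, and genes are not replicates. Transcript length gave a rho of 0.11 and mean level one of 0.06 over the members.

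Split by GC into 3 groups of 27, members with 39.9% to 45.2% GC had a median log2 ratio of 0.10, with 24 above 1 and 3 below. In the middle group, with 45.5% to 51.0% GC, the median was 0.07, with 19 above and 8 below. In the highest group, with 51.9% to 63.6% GC, the median was −0.01, with 9 above and 18 below. The other genes with at least 100 FPKM had medians of 0.06, 0.02 and −0.07 in these GC ranges. Of them 70.1%, 57.1% and 34.3% were above 1, from lowest to highest GC. Over all other genes the shares were 57.0%, 44.3% and 24.7%. The part of base composition in the directions of single members was not tested. With a trend on GC over all genes removed, 71 members were above 1 and 10 below, against 51.3% of all genes above 1. The 12 members on chromosome 19, a GC-rich chromosome, had a median of −0.01 with 5 above 1 (41.7%, against 41.6% of all genes). The other 69 had one of 0.06 with 47 above 1 (68.1%).

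**Figure D5:**
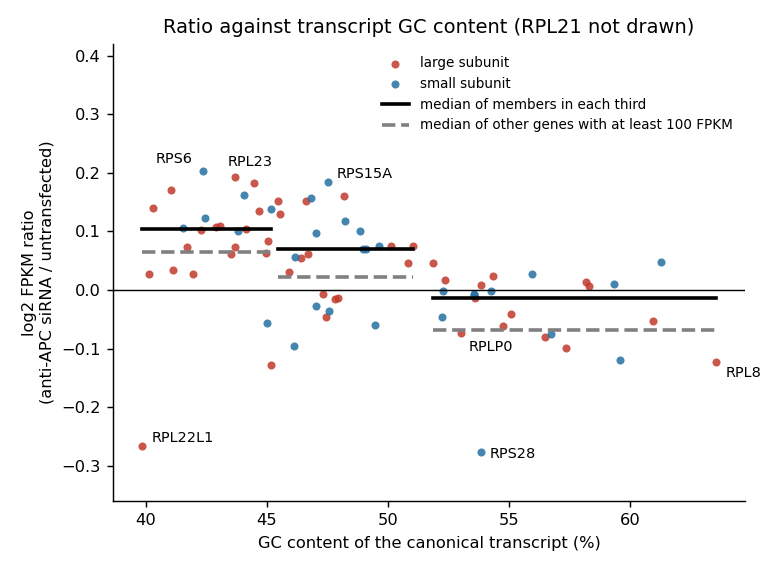
Log2 FPKM ratio, siAPC over untransfected (vertical axis), against the GC content of the canonical transcript in percent (horizontal axis) for 78 members, with the median of each full group of 27 members by GC (black) and of other genes with at least 100 FPKM in the same GC range (dashed). RPL21, at 1.15, is left out of view, and the member medians go from 0.10 through 0.07 to −0.01.

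The start sites show what these genes share that the rule did not use. RefSeq (GRCh38.p14) gave a window from 250 bases before to 50 bases after the start for 67 of the 84 members. A C at the annotated start followed by at least 4 pyrimidines, the TOP pattern, was found in 44 of the 67 (65.7%), against 4.04% of all 27305 promoters. With the C allowed within 5 bases of the start it was found in 52 (77.6%), against 21.1%. Mitochondrial ribosomal proteins held the exact pattern in 5 of 69 (7.25%), and TOP mRNAs of other proteins in 7 of 9. The windows shown run from 10 bases before the start to the twentieth base from it, for 8 members described above that hold a tract, and capitals mark it. Among the members with low ratios, *RPL26L1* and *RPS29* held none within 5 bases of the start. They lie at chr9:19380217-19380246 (minus) for *RPS6*, chr12:120201092-120201121 (minus) for *RPLP0*, chr15:69452808-69452837 (plus) for *RPLP1*, chr13:27251548-27251577 (plus) for *RPL21*, chrX:119791611-119791640 (minus) for *RPL39*, chr1:6199576-6199605 (minus) for *RPL22*, chr3:170870176-170870205 (minus) for *RPL22L1* and chr19:8321486-8321515 (plus) for *RPS28*.
RPS6: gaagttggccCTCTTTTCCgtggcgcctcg
RPLP0: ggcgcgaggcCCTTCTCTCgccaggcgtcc
RPLP1: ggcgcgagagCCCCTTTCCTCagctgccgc
RPL21: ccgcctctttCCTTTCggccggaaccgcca
RPL39: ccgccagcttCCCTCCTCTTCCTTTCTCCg
RPL22: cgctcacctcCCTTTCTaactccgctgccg
RPL22L1: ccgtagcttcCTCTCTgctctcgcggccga
RPS28: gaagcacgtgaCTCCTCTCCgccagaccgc
In *RPS28* the tract starts 1 base after the annotated start, and in *RPL39* it runs for 19 bases. The 44 members with it at the exact start had a median log2 ratio of 0.03, and the 21 measured members without it one of 0.05.

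Motifs of the factors the study centres on were found in few of these windows. Searched on both strands, a TCF7L2 core (AACAAAG, the variant ATCAAAG, the variant TACAAAG or the variant TTCAAAG) was found in 7 members, *RPL22L1*, *RPL34*, *RPLP0*, *RPS23*, *RPS26*, *RPS27* and *RPS4X*, which is 10.4% of the 67 against 13.9% of all promoters. The AP-1 site (TGACTCA or TGAGTCA) was found in *RPL24* only, 1.49% against 4.92%. The log2 ratios of the 7 genes with a TCF7L2 core ran from −0.27 for *RPL22L1* to 0.17 for *RPL34*. The TATA box TATAAA was found in 10.4% of members against 12.0% of all promoters. An ETS core, CCGGAAG, was found in 32.8% against 10.7%, and the SP1 site GGGCGG in 53.7% against 44.6%. The 8037 other genes above the minimum with a window are a nearer reference, and there the shares were 5.23% for the exact TOP pattern, 7.74% for TCF7L2, 2.89% for AP-1, 5.01% for TATAAA, 20.5% for ETS and 72.4% for SP1. A match is a string of letters in a window and does not show binding.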

How the data were processed

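The authors sequenced RNA of HCT-116 cells as single reads and deposited FPKM per gene made with Cufflinks and Cuffdiff on hg19, as their processing notes list. Versions, aligner and annotation are not given in the sources used here. The table's ratio, statistic, p and q columns hold the authors' comparison and were not used. FPKM holds no read counts, so no interval or limit of detection is given.

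The members and lists were chosen with earlier results of these data known. The log2 ratio of siAPC over untransfected FPKM was taken without a pseudocount for genes at or above 1 FPKM in each library, with calls at 1.2-fold and 1.5-fold. Values are printed for the highest 10 levels, the 5 highest and 5 lowest ratios, and members by role. Pseudogene sums, read-throughs, GC, chromosome 19, snoRNA rows, S6 kinases, promoter searches and the 1.1-fold range, with the genes named for them, were chosen after values were seen, as were *RPS2*, *RPS27* and the translation factors named. A few genes counted in the totals are not reported here by name or drawn. Gene positions and transcripts come from GENCODE 44 on GRCh37 (21204 of 23131 rows matched by symbol), and promoters from RefSeq on GRCh38.p14.

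Without replicate spread, another setting was taken to move a median if it differed by over 0.1 (log2) or turned sign, and a count or share if it differed by over 1.5 times. These tolerances were set after the data were seen. Rescaling the libraries subtracted −0.05 (median of all genes), 0.06 (one sum) or −0.04 (upper quartile) from each ratio. The calculations were tested on simulated data. Tools were Python 3.11.15, pandas 2.3.3 and numpy 2.4.6 for tables, statsmodels 0.14.6 for the lowess trend, scipy 1.17.1 for correlations, Biopython 1.88 for alignments and matplotlib 3.10.9 for plots.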

Additional observations from a re-analysis of the deposited data

How the results depend on the processing

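Of the values recomputed under an alternative, 72 stayed within the tolerance, 13 moved past it and 5 turned sign. The tolerance of 0.1 was larger than the size of every main median, and the rescalings shifted ratios by at most 0.06. Under a rescaling a median could thus leave the tolerance only by turning sign, so the count of 72 does not show that the medians are stable. The members' median counted as within tolerance at 0.0955 with the median of all genes subtracted, against 0.0452 as deposited. Rescaling to one FPKM sum, of which *MIR4461* held 49.2% and 50.3%, turned the medians of the members and of the large subunit to −0.0164. The same rescaling turned that of the small subunit to −0.0241 and of translation factors to −0.0138. The lowess trend on GC turned that of mitochondrial ribosomal proteins to 0.00782. The number of members at least 1.2-fold lower was 0 with the median of all genes subtracted and 1 with upper quartile scaling or the GC trend removed. Members at least 1.2-fold higher and at least 1.5-fold different were 2 and 3 with no minimum, since *RPL3L* and *RPL10L* entered, and 0 and 0 among genes alone at their locus, with pseudogene rows summed, or without *RPL21*. The share of FPKM was 10.7% and 10.9% without the 20 highest other rows. Pseudogene sums, the GC trend and leaving out *RPL21* were chosen after seeing the data. Alternatives with scrambled siRNA as the control were not run. No paired analysis was possible because each group has 1 library. Depth is unknown, so low values such as those of *RPL21* have no stated error.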

Other observations

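Many ribosomal protein genes carry small nucleolar RNAs (snoRNAs), guides of ribosomal RNA modification, in their introns. The table has 55 snoRNA rows at the loci of 27 members, of which 47 were at or above 1 FPKM in each library. These had a median log2 ratio of 0.01 but quartiles of −0.41 and 0.33, and they ranged from −1.64 to 1.32, far wider than the host mRNAs. At least 1.2-fold higher were 14 (29.8%), against 37.5% of the 128 other snoRNA rows above the minimum and 9.59% of all genes. At least 1.2-fold lower were 17 (36.2%), against 29.7% of those other rows and 22.2% of all genes. Rows of one host went both ways. At *RPL13A* (host log2 ratio 0.01), *SNORD33* stood at 405 FPKM in untransfected and 133 FPKM in siAPC cells, and *SNORD32A* at 420 and 475 FPKM. At *RPL4* (0.13), *SNORD18B* stood at 171 and 427 FPKM, and *SNORD18C* at 1379 and 975 FPKM. A further 5 rows were listed at 0 in the untransfected library only, *SNORD42A* among them at 842 FPKM in siAPC cells, and *SNORD4B* was listed at 0 in siAPC cells only, at 126 FPKM in untransfected. The 128 other snoRNA rows above the minimum had a median of 0.14 with quartiles of −0.48 and 0.48. FPKM divides by length and depth is unknown, so the number of reads behind a short snoRNA row cannot be given. Whether the spread of the snoRNA rows comes from few reads was not tested, and single rows are not read as changes.

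The kinases of *RPS6* did not share one direction. *RPS6KB1*, the main S6 kinase, stood at 38.0 FPKM in untransfected and 30.6 FPKM in siAPC cells (log2 ratio −0.31), and *RPS6KB2* at 18.8 and 23.9 FPKM (0.35). Among the RSK and MSK kinases, *RPS6KA1* stood at 15.4 and 11.4 FPKM (−0.43), and *RPS6KA5* at 9.63 and 6.86 FPKM (−0.49).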
